A study of Paramacrobiotus metropolitanus with 7 samples.

Results

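Male-limited transcripts are those that the RNA of males contains and the RNA of females lacks, or nearly lacks. In the tardigrade Paramacrobiotus metropolitanus, 38 of the 26306 transcripts of the deposited expression matrix (0.144%) had a value of at least 5 TPM in each of the 4 male libraries and below 0.2 TPM in each of the 3 female libraries. TPM is a measure of transcript level corrected for transcript length and library size, and the deposited values were in addition scaled between libraries by the TMM method. Of the 38, 2 lie in 6 ranges of neighbouring loci that hold many male-biased transcripts, namely locus numbers 3061 to 3120, 8551 to 8655, 11896 to 12090, 12286 to 12345, 19606 to 19635 and 22651 to 22680. The other 36, from 36 loci, are described here. They were chosen by these TPM values in both sexes, so their difference between the sexes is given as a description and was not tested.

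The libraries were made from poly A-selected RNA of whole adult specimens of the TYO strain, which were raised apart from one another after hatching and sexed by their gonads. Each library is a pool of adults of one sex, with 3 female and 4 male libraries, and sex is the one difference between the groups in the labels. The labels give replicate numbers but do not say whether the pools came from separate cultures, so a spread between libraries may be partly technical. Means are given with ± the SD over the 4 male or the 3 female libraries. The libraries held an estimated 4530000 to 10410000 reads (rounded) on the predicted coding sequences, with the fewest in male library 4. The whole number of reads behind each value of the 36 transcripts was recovered from the deposited normalized counts.

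In animals with separate sexes, transcripts found in one sex alone often come from the gonads, because the testis and the ovary contain cell types that the other sex does not have. Developing sperm use many genes that no other tissue uses, such as those for the sperm tail and for the packing of sperm DNA. In a whole-body library, more cells of such a type and more RNA per cell cannot be told apart. The files annotate no transcript with a function or a cell type, and none of the 24899 gene identifiers was found in the RefSeq gene table for this species. No role is therefore given for any of the 36 transcripts. The study lists orthologs of DMRT transcription factors, which govern sex-specific development in many animals, candidates for the splicing regulators sxl and tra2, and the desiccation and stress protection families CAHS, SAHS, AMNP and Dsup. Of the 66 genes on these lists, 2 DMRT orthologs lie inside a left-out range, where the rule allows none of the 36 transcripts. Of the other 64 genes, 0 hold one of the 36 transcripts and 0 lie within 5 locus numbers of one. Among all 26306 transcripts, 352 others lie within 5 locus numbers of one of the 36, outside the ranges. With so small a share few of 64 genes would be found, so these counts are no result about the listed genes.

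The 36 transcripts covered a wide range of levels in males, with male means from 6.01 to 553 TPM and a median of 13.3 TPM. Of these means, 25 were below 20 TPM, 7 lay between 20 and 100 TPM and 4 were above 100 TPM. The highest belonged to PARRI_0020185.t1, with 738, 91.0, 1367 and 16.4 TPM in male libraries 1 to 4. PARRI_0022962.t1 followed with 278, 320, 80.0 and 153 TPM, PARRI_0022778.t1 with 182, 93.1, 188 and 49.9 TPM, and PARRI_0019513.t1 with 147, 62.8, 184 and 33.3 TPM. Male library 4 was the lowest for all of these except PARRI_0022962.t1, for which male library 3 was the lowest.

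In the same order of libraries, PARRI_0020239.t1 had 68.4, 37.4, 69.3 and 133 TPM, and PARRI_0008285.t1 had 109, 27.2, 127 and 10.7 TPM. The former was highest and the latter lowest in male library 4. PARRI_0022931.t1 had 90.5, 18.4, 139 and 5.43 TPM, and PARRI_0017018.t1 had 37.5, 67.9, 52.1 and 17.4 TPM. The 10 highest means were completed by PARRI_0011859.t1, with 30.6 ± 7.07 TPM, and PARRI_0019350.t1, with 24.4 ± 8.25 TPM. At the other end, PARRI_0007768.t1 had 5.64, 6.82, 5.58 and 5.99 TPM, so that its 4 male libraries lay close together just above the threshold. The remaining 25 means lay between 6.30 ± 1.52 TPM for PARRI_0000938.t1 and 21.8 ± 7.82 TPM for PARRI_0008508.t1.

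**Figure D1:**
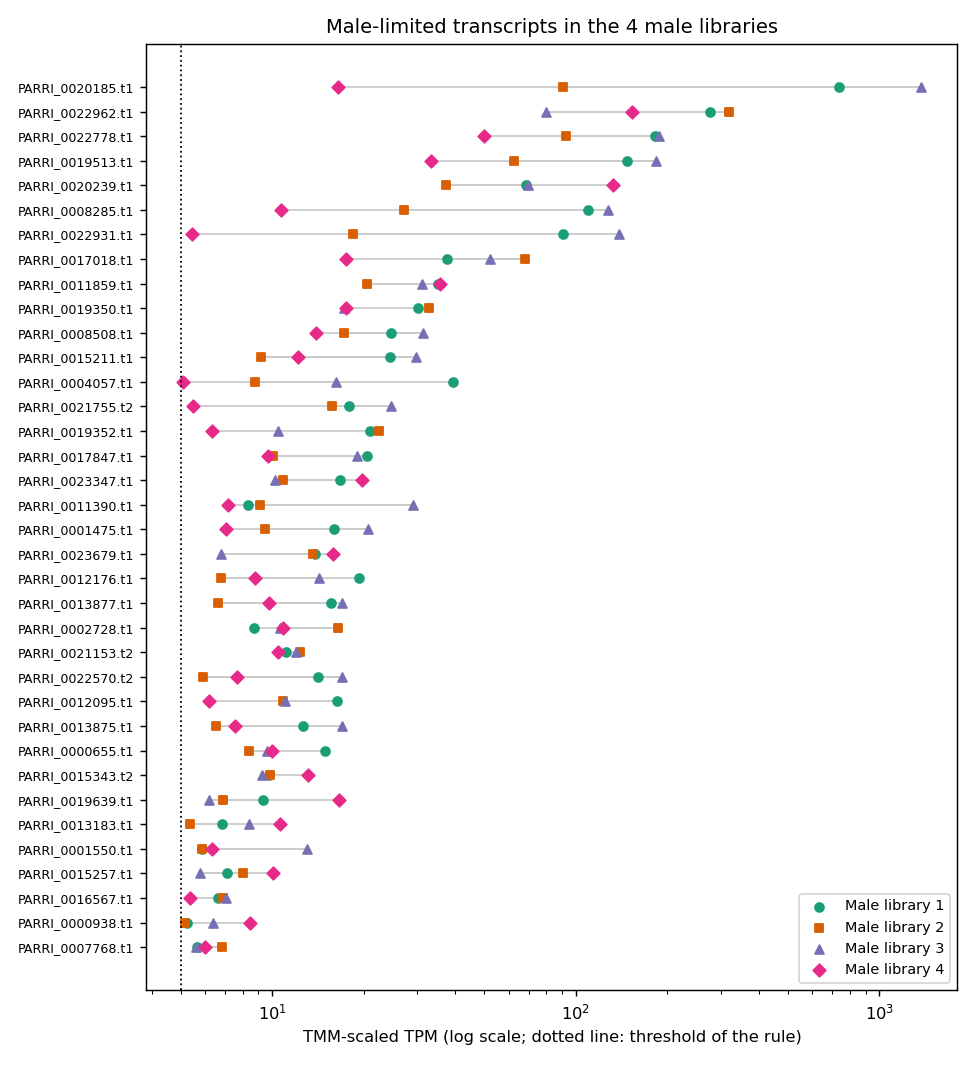
TMM-scaled TPM (x axis, log scale) of the 36 male-limited transcripts (y axis, ordered by male mean) in the 4 male libraries, one symbol per library, with a dotted line at the threshold of 5 TPM. PARRI_0020185.t1 spans 16.4 to 1367 TPM, while PARRI_0021153.t2 stays between 10.4 and 12.3 TPM.

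In females, 27 of the 36 transcripts were listed at 0 in all 3 libraries, and for these the recovered reads were also 0. The rule had a large part in this, since it allowed female values below 0.2 TPM alone. For 18 transcripts, all of them among the 27, a single read was worth more than that in every male library. The female reads are therefore given as a description. Another 7 had a value above 0 in 1 female library and 2 in 2 female libraries. All 36 transcripts together held 16 reads in the female libraries, against 29449 reads in the male libraries. PARRI_0004057.t1 had the most, with 2 reads each in female libraries 1 and 2 (0.128 and 0.113 TPM). PARRI_0017847.t1 had 2 reads in female library 1 and 1 in female library 3. PARRI_0022778.t1 had 2 reads in female library 2 (0.174 TPM) and PARRI_0013875.t1 had 2 in female library 1 (0.173 TPM). A single female read was found for PARRI_0000938.t1, PARRI_0013877.t1, PARRI_0019350.t1, PARRI_0019513.t1 and PARRI_0023347.t1. Values above 0 were found for 5 transcripts in female library 1, 4 in female library 2 and 2 in female library 3.

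The reads behind the male values differed much more between the transcripts than the TPM did. Summed over the 4 male libraries they ranged from 9 to 7317, with a median of 198.5. PARRI_0019513.t1 held 2620, 1148, 3281 and 268 reads in male libraries 1 to 4, and PARRI_0022778.t1 held 2390, 1253, 2481 and 298 reads. With the 3885 reads of PARRI_0020185.t1, these accounted for 59.8% of the male reads of all 36 transcripts. Between 1005 and 1452 reads were held by PARRI_0017847.t1, PARRI_0001475.t1, PARRI_0004057.t1 and PARRI_0008285.t1. At the low end, 12 transcripts had fewer than 100 reads in males and 6 had fewer than 50.

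Several high TPM values rested on few reads. PARRI_0017018.t1, with a male mean of 43.7 ± 21.5 TPM, was measured from 2, 3, 3 and 1 reads in male libraries 1 to 4, so that a single read was worth between 17.4 and 22.6 TPM. PARRI_0022962.t1, with a male mean of 208 ± 111 TPM, was measured from 26, 25, 8 and 14 reads, at up to 12.8 TPM per read. PARRI_0020239.t1, with a male mean of 76.9 ± 39.9 TPM, was measured from 17, 8, 18 and 26 reads. PARRI_0011390.t1 had 8.32, 9.13, 29.1 and 7.12 TPM from 2, 2, 6 and 1 reads. Across the 36 transcripts, Spearman's correlation between male reads and mean male TPM was 0.24, given as a description since all points share the same 4 libraries.

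**Figure D2:**
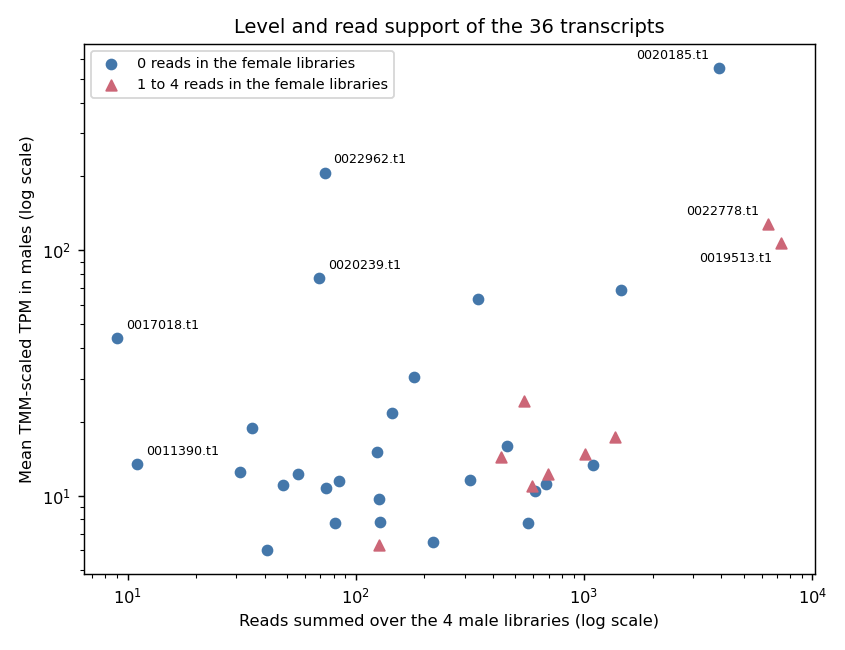
Mean TMM-scaled TPM in males (y axis, log scale) against reads summed over the 4 male libraries (x axis, log scale) for the 36 transcripts, with circles for 0 female reads and triangles for 1 to 4. PARRI_0022962.t1 reaches 208 TPM from 73 reads, while PARRI_0019513.t1 reaches 107 TPM from 7317 reads.

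Reads per TPM grow with the length over which a transcript can be sampled, and this relative length could be set against that of the 11139 transcripts with at least 5 TPM in each male library, whose median was set to 1. RSEM uses an effective length, roughly the length of the transcript less that of a sequenced fragment, which nears 0 for transcripts about as long as a fragment. The male-limited transcripts had a median relative length of 0.40 (interquartile range 0.141 to 1.16), against 1.02 (0.498 to 1.75) for the 8283 transcripts outside the ranges with at least 5 TPM in each of the 7 libraries. A relative length below 0.25 was found for 16 of the 36, or 44.4%, against 11.1% of those 8283. The shortest were PARRI_0017018.t1 (0.00496), PARRI_0022962.t1 (0.00916) and PARRI_0011390.t1 (0.0193), and the longest were PARRI_0015257.t1 (1.91), PARRI_0001475.t1 (1.88) and PARRI_0004057.t1 (1.73). For 18 of the 36 transcripts 1 read was worth more than 0.2 TPM in every male library. For 10 of the 36, 1 read was worth less than 0.2 TPM in every male library. Of the 9 transcripts with female reads, 8 had at least 432 male reads. The thresholds thus act differently on transcripts of different length. For the 18 transcripts, a single female read of such a value would have exceeded the female threshold. In male library 4, 1 read was enough for 17.4 TPM of PARRI_0017018.t1 and 7.12 TPM of PARRI_0011390.t1. The part of the rule in the share of short transcripts was not tested.

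The depth of the female libraries limits how far below the male level each female level can be placed. For the 27 transcripts without female reads, a limit of 3 reads over the 3 female libraries together was used, and reads were divided by the size factors of the libraries. On this scale the summed male reads of PARRI_0020185.t1 were at least 842-fold higher, those of PARRI_0008285.t1 at least 315-fold and those of PARRI_0001475.t1 at least 236-fold. Those of PARRI_0022570.t2 were at least 147-fold higher, those of PARRI_0015343.t2 at least 133-fold and those of PARRI_0015257.t1 at least 124-fold. Each bound is for the sum over the 4 male libraries and was not computed for single libraries. PARRI_0020185.t1 held 2422 reads in male library 3 but 15 in male library 4, so its bound does not describe every male library. For 16 others the bound lay between 10-fold and 100-fold. It was below 10-fold for 5 transcripts, PARRI_0007768.t1 (8.89), PARRI_0015211.t1 (7.59), PARRI_0023679.t1 (6.72), PARRI_0011390.t1 (2.38) and PARRI_0017018.t1 (1.95).

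At the male rate, the female libraries together would have held 5.85 reads of PARRI_0017018.t1 and 7.15 reads of PARRI_0011390.t1, so that few reads were to be expected in females even at the male level. The same quantity was 2526 reads for PARRI_0020185.t1. For the 9 transcripts with female reads, the ratio of males to females ranged from 82.6 for PARRI_0000938.t1 (95% exact interval 14.6 to 3287) to 4758 for PARRI_0019513.t1 (854 to 187964). It was 2088 for PARRI_0022778.t1 (578 to 17246). These bounds and intervals cover counting error alone and not the spread between libraries. They also make no allowance for the choice of the transcripts by these same values, which favours high ratios. They describe the counts and are not tests of a sex difference.

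**Figure D3:**
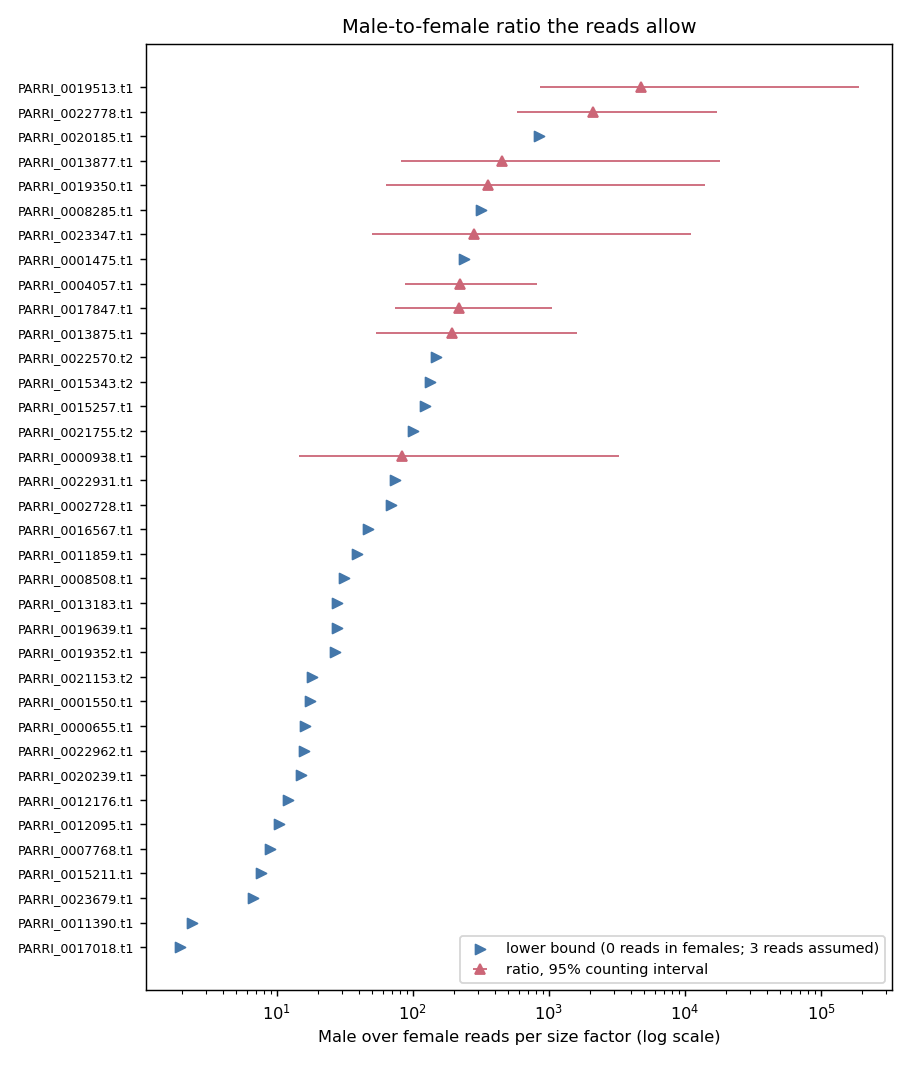
Ratio of male to female reads per size factor (x axis, log scale) for the 36 transcripts, as lower bounds where females held 0 reads (pointers to the right, from 3 reads over the 3 female libraries) and as ratios with 95% counting intervals otherwise (triangles). The bounds run from 1.95 for PARRI_0017018.t1 to 842 for PARRI_0020185.t1. Bounds and ratios are for reads summed over the libraries of each sex.

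The thresholds cut through a continuous range of values. The lowest male values just inside were those of PARRI_0004057.t1 (5.09 TPM in male library 4), PARRI_0000938.t1 (5.17 TPM in male library 2) and PARRI_0016567.t1 (5.34 TPM in male library 4). Just outside, PARRI_0011248.t1, PARRI_0021055.t1 and PARRI_0008764.t1 had female values of 0 and lowest male values of 4.95, 4.89 and 4.85 TPM. On the female side, the highest values inside were 0.195 TPM, in PARRI_0000938.t1 and PARRI_0019350.t1, and 0.174 TPM in PARRI_0022778.t1. Just outside, PARRI_0011392.t1, PARRI_0021268.t1 and PARRI_0008547.t1 had highest female values of 0.205, 0.217 and 0.228 TPM. A further 38 transcripts met the female threshold with a lowest male value from 2.5 to under 5 TPM, and 22 met the male threshold with a highest female value from 0.2 to under 0.4 TPM.

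The number of male-limited transcripts depended on single libraries. Every library has to pass the rule, so leaving one out can keep or raise the number but not lower it. The size of the rise is what differed between libraries. Without female library 2, 110 transcripts met the thresholds in place of 36, and without female library 3 there were 66. Without male library 4 there were 64. Leaving out any one of the other libraries gave between 42 and 52.

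The male-limited transcripts also varied among the male libraries, a measure that the rule restricts but does not set. The highest male library stood over the lowest by a median ratio of 2.62 (interquartile range 1.90 to 3.81), against 1.61 (1.37 to 2.05) for the 8283 transcripts with at least 5 TPM in each of the 7 libraries. A ratio above 4 was found for 7 of the 36 transcripts, against 4.68% of the 8283. The largest ratios were 83.1 for PARRI_0020185.t1, 25.5 for PARRI_0022931.t1, 11.9 for PARRI_0008285.t1 and 7.72 for PARRI_0004057.t1. The most even were PARRI_0021153.t2 (1.18), PARRI_0007768.t1 (1.22), PARRI_0016567.t1 (1.31) and PARRI_0015343.t2 (1.42). Few reads widen this ratio, and for PARRI_0011390.t1 (4.08) it rests on 6 reads in male library 3 and 1 read in male library 4. With the 12 transcripts of fewer than 100 male reads left out, the median ratio was 2.58. With every library rescaled to the same sum it was 2.33. Without male library 4 it was 1.96, though leaving a library out cannot raise the ratio. The 8283 were better covered, with a median normalized count in males of 271 against 45.6 for the 36. Their median male mean was 28.2 TPM against 13.3 TPM. The part of coverage in the wider ratio was not tested.

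Male library 3 held the highest value of 15 of the 36 transcripts (41.7%, against 29.9% of the 8283), and male library 4 the lowest value of 16 (44.4%, against 29.3%). For the transcripts with the 3 widest ratios, the high libraries held many reads and the lowest library few. PARRI_0020185.t1 held 1293, 155, 2422 and 15 reads in male libraries 1 to 4, PARRI_0008285.t1 held 589, 148, 688 and 27, and PARRI_0022931.t1 held 123, 24, 191 and 4. Male libraries 1 and 3 were high and male libraries 2 and 4 low in each of these. The order of male libraries 3, 1, 2 and 4, from highest to lowest, an order picked out after the values were seen, was shared by 8 of the 36 transcripts (22.2%, against 9.59% of the 8283), among them PARRI_0019513.t1, PARRI_0022778.t1 and PARRI_0001475.t1. Other transcripts went another way, such as PARRI_0015257.t1 with 7.08, 7.98, 5.76 and 10.1 TPM and PARRI_0019639.t1 with 9.32, 6.89, 6.17 and 16.5 TPM, which were both highest in male library 4. Male library 4 has the fewest reads, and the part of depth in its low values was not tested.

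Of the 36 transcripts, 32 carry the suffix t1 and 4 the suffix t2, which number the predicted transcripts of a locus. The loci of 7 of them have other predicted transcripts, 8 in all, whose values the rule did not use, although RSEM divides reads that match several transcripts of a locus between them. The sexes were compared in these with limma on log2(TPM + 0.1), fitted over the 18420 transcripts with at least 1 TPM in at least 3 of the 7 libraries. Of the 7 that were tested, 4 were higher in males and 2 higher in females at a false discovery rate (FDR) of 0.05, where 25.3% of all tested transcripts were higher in males and 23.9% higher in females.

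Locus PARRI_0015343 had transcripts whose levels differed between the sexes in opposite directions. The male-limited PARRI_0015343.t2 had 9.79, 9.79, 9.25 and 13.1 TPM in male libraries 1 to 4, from 612 reads, and was listed at 0 in females. PARRI_0015343.t3 had 50.7, 94.8 and 128 TPM in the female libraries but averaged 15.8 ± 2.93 TPM in males. Its log2 difference, males minus females, was -2.44 with an SE of 0.35 (limma FDR 0.0012). PARRI_0015343.t1 had 35.7, 90.6 and 90.5 TPM in the female libraries but averaged 5.35 ± 2.99 TPM in males. Its log2 difference was -3.78 with an SE of 0.53 (limma FDR 0.0011). For both, each female library was above each male library. The sum over the locus averaged 163 ± 68.7 TPM in females against 31.6 ± 5.06 TPM in males, and the male-limited transcript made up between 25.7% and 43.8% of it in the male libraries.

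At 4 loci, the other transcript was itself higher in males but was also found in females. PARRI_0022570.t1 had a male mean of 77.8 ± 20.997 TPM and 0.420, 6.49 and 3.94 TPM in the female libraries (limma FDR 0.0018), beside the male-limited PARRI_0022570.t2 with a male mean of 11.1 ± 5.21 TPM. PARRI_0001475.t2 had a male mean of 60.2 ± 12.8 TPM and 0.611, 5.41 and 3.49 TPM in the female libraries (limma FDR 0.0011). PARRI_0002728.t2 had a male mean of 39.2 ± 12.3 TPM and 0.885, 4.44 and 2.91 TPM in the female libraries (limma FDR 0.0011). PARRI_0021755.t1 had a male mean of 15.7 ± 5.61 TPM and 0, 7.30 and 1.62 TPM in the female libraries (limma FDR 0.034, which ranged from 0.0078 to 0.077 over 12 alternatives and missed the threshold in 6 of them). In each of these, female library 1 was the lowest female library and female library 2 the highest, and each had values above 0 in at least 2 female libraries.

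The remaining loci of this kind are PARRI_0015257 and PARRI_0021153. PARRI_0015257.t2 had 6.19, 1.34, 7.37 and 0 TPM in the male libraries and 0.237, 1.69 and 0.434 TPM in the female libraries, and did not pass the threshold (limma FDR 0.49). PARRI_0021153.t1 was listed at 0 in 6 libraries and had 3.55 TPM in female library 2, and was not tested. The male-limited PARRI_0021153.t2 had 11.1, 12.3, 11.96 and 10.4 TPM in the male libraries from 23, 25, 25 and 11 reads.

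**Figure D4:**
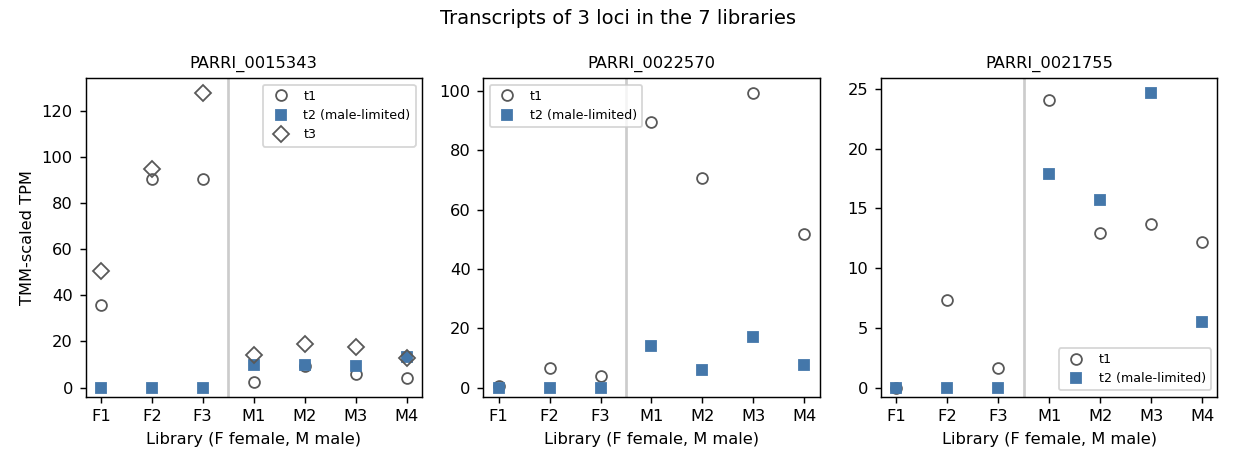
TMM-scaled TPM (y axis) of the predicted transcripts of 3 loci in female libraries 1 to 3 (F) and male libraries 1 to 4 (M) on the x axis, with filled squares for the male-limited transcript. At PARRI_0015343 the other transcripts are higher in females, and at PARRI_0022570 and PARRI_0021755 they are higher in males.

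The 36 loci were spread over the numbered loci of the genome. Locus numbers run from 1 to 24903 and were used as an order alone, since the scaffolds were not used here. When this range was split into 4 equal stretches, they held 6, 7, 9 and 14 of the loci in turn, and the median gap between successive ones was 451. Pairs at most 5 numbers apart were PARRI_0013875.t1 with PARRI_0013877.t1 and PARRI_0019350.t1 with PARRI_0019352.t1. The members of the first pair had similar levels, 10.9 ± 4.84 and 12.2 ± 4.89 TPM, and the same order of the male libraries. Those of the second pair had 24.4 ± 8.25 and 15.1 ± 7.92 TPM. Both were highest in male library 2, but PARRI_0019350.t1 was lowest in male library 3 and PARRI_0019352.t1 in male library 4. Of the 36, 2 lay within 5 numbers of one of the 6 left-out ranges (PARRI_0012095.t1 and PARRI_0019639.t1) and 4 within 50, PARRI_0008508.t1 and PARRI_0011859.t1 being the others. Within 100 numbers of a range there were 8. The share of all loci that lie this near a range was not computed, so whether these counts are high was not tested.

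Transcripts of neighbouring loci were examined to see whether the male-limited transcripts stand alone. Within 5 locus numbers, and without the left-out ranges and the loci of the 36 themselves, there were 352 transcripts, of which 259 were tested. At a limma FDR of 0.05, 115 of these were higher in males, or 44.4%, against the 25.3% of all tested transcripts. Higher in females were 39, or 15.1%, against 23.9%. The median log2 difference (males minus females) was 1.26 among the neighbours and 0.50 over all tested transcripts. Of the 259, 57 passed this FDR and also had a male mean over 10 times the female mean (0.1 TPM being added to both), or 22.0%, against 8.09% of all tested transcripts. No set test was made of these shares.

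The share of neighbours higher in males was greatest at the smallest distances, with no steady order further away. At a distance of 1 locus number, 30 of 57 tested transcripts were higher in males (52.6%), and at 2 it was 28 of 52 (53.8%). At 5 it was 15 of 49 (30.6%), at 7 it was 11 of 46 (23.9%) and at 10 it was 16 of 45 (35.6%). From 11 to 20 numbers away the share was 28.3% of 445 transcripts, and from 21 to 50 it was 28.0% of 1218. Without the 4 transcripts within 50 numbers of a left-out range, 95 of 232 neighbours were higher in males (40.9%). Around transcripts with at least 100 male reads the share was 48.0% (83 of 173), and around those with fewer it was 37.2% (32 of 86). The shares higher in females there were 12.1% (21 of 173) and 20.9% (18 of 86). Whether neighbouring transcripts share sequence, and so reads, was not tested.

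**Figure D5:**
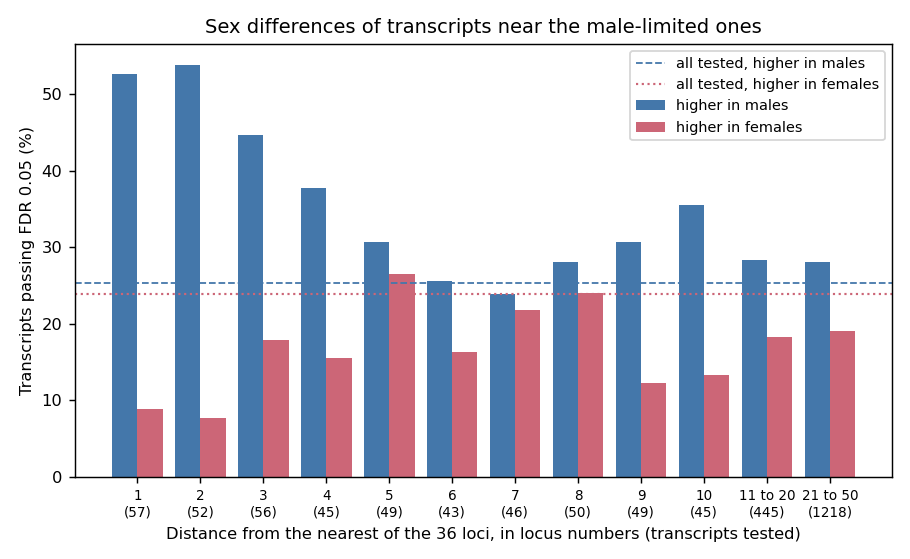
Share of tested transcripts passing a limma FDR of 0.05 (y axis, %) by distance in locus numbers from the nearest of the 36 loci (x axis, number tested in brackets), higher in males (blue) and in females (red), with lines for all tested transcripts. The share higher in males is 52.6% at a distance of 1 and 28.0% from 21 to 50.

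Counted by locus, 32 of the 36 loci had at least 1 tested transcript higher in males within 5 locus numbers (88.9%, against 76.9% of the 24114 other loci with a tested neighbour). At least 1 higher in females was found for 14 (38.9%, against 58.5%). More neighbours higher in males than in females were found for 27 of the 36 loci, against 45.3% of the others, and the reverse for 6 (16.7%, against 37.3%). These shares are descriptions, and windows of nearby loci overlap. Around PARRI_0022778.t1, 7 of 10 tested neighbours were higher in males and 0 higher in females. Its neighbour PARRI_0022780.t1, named after its values were seen, had 554, 264, 589 and 167 TPM in male libraries 1 to 4 and 0.091, 0.933 and 0.043 TPM in the female libraries. PARRI_0019512.t1, named in the same way and adjacent to PARRI_0019513.t1, had 290, 134, 399 and 95.9 TPM in males and 0.402, 0.656 and 0.184 TPM in females. Both followed the order of male libraries of the male-limited transcript beside them, with library 3 highest and library 4 lowest.

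Among the neighbours higher in males, the highest male means were those of PARRI_0011395.t1, PARRI_0021760.t1 and PARRI_0000936.t1. PARRI_0021760.t1 had 747, 166, 610 and 296 TPM in the male libraries and 0, 0 and 12.2 TPM in the female libraries (limma FDR 0.0021). PARRI_0011395.t1 averaged 634 ± 164 TPM in males against 258 ± 157 TPM in females, and its log2 difference was 1.42 with an SE of 0.41 (limma FDR 0.021). It missed the threshold in 3 of 12 alternatives, without female library 2, female library 3 or male library 1. PARRI_0000936.t1 had a male mean of 446 ± 79.2 TPM and 48.1, 424 and 82.6 TPM in the female libraries, so that the sexes overlapped (limma FDR 0.043). It missed the threshold in 8 of 12 alternatives, with any one library but female library 2 left out among them.

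Some male-limited transcripts lay among transcripts that were higher in females. Around PARRI_0000655.t1, which had 14.9, 8.39, 9.64 and 9.996 TPM in the male libraries from 74 reads, 8 of 10 tested neighbours were higher in females and 0 higher in males. They included PARRI_0000652.t1, which averaged 119 ± 36.7 TPM in females against 19.7 ± 2.31 TPM in males (limma FDR 0.00049), and PARRI_0000650.t1, which averaged 110 ± 26.8 against 47.7 ± 6.33 TPM (limma FDR 0.0063). Around PARRI_0012176.t1, with 56 male reads, 5 of 10 neighbours were higher in females and 1 higher in males. Next to PARRI_0001550.t1, PARRI_0001549.t1 averaged 208 ± 65.9 TPM in females against 107 ± 15.6 TPM in males (limma FDR 0.028, missed in 6 of 12 alternatives).

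The 2 transcripts that met the thresholds inside the left-out ranges had male means of 51.0 and 36.3 TPM, above those of 29 and 28 of the 36. PARRI_0012043.t1 had 53.1, 41.8, 68.5 and 40.5 TPM in male libraries 1 to 4 and PARRI_0003087.t1 had 14.0, 50.4, 26.0 and 54.6 TPM, and both were listed at 0 in the female libraries. PARRI_0003087.t1 lies 3 locus numbers from the DMRT ortholog PARRI_0003090.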

How the data were processed

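Sex and replicate number of the 7 libraries were taken from the sample labels. The authors mapped reads to predicted coding sequences with RSEM 1.3.3 and deposited a signal per transcript and library, TPM scaled by TMM, which keeps no depth. The authors also deposited their DESeq2 1.38.0 comparison, of which the mean normalized counts per sex (a signal) were used, and the fold changes and p-values were not. Transcripts seen in a single library of a sex show the size factors of the counts. Whole reads of the 36 transcripts were then solved from those means (tolerance 1e-10), with a unique solution for each. On simulated data 200 of 200 count vectors were recovered. These reads are RSEM estimates rounded by the authors' procedure. Relative length is mean normalized counts over TPM, after library factors fitted on 3435 transcripts.

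The sexes were compared with limma 3.58.1 (R 4.3.3), with sex as the only term and a trend in the prior variance. Tests were two-sided, and FDR is Benjamini-Hochberg adjusted. On simulated data 91 of 200 changed transcripts, of 18420, were called, with 4 false calls. In the real data far more were called, 25.3% higher in males and 23.9% higher in females. The FDR cutoff depends on that share, so the simulated recovery does not give the recovery in the real data. Counting intervals are exact 95% intervals. Python 3.11.15, pandas 2.3.3, NumPy 2.4.6, SciPy 1.17.1 and matplotlib 3.10.9 were used. The transcripts and lists were chosen with earlier results of these data known. Named were the 10 of highest male mean, the 4 highest and 4 lowest by spread and by reads, the 3 nearest each threshold on either side, those at loci with another transcript of at least 5 TPM in a female library, and the 3 neighbours of highest mean called in each direction. The remaining ones were added to account for all 36. Deviations from the group means had r of -0.013, 0.028 and 0.253 between same-numbered libraries of the sexes. Differently numbered ones ranged from -0.255 to 0.259, so same numbers did not stand out and were not taken as pairs. The p-values measure the spread between these libraries.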

Additional observations from a re-analysis of the deposited data

Results flagged for a closer look

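The 4 male libraries of each of the 36 transcripts were examined for a library far from the others. The gap between an end library and the nearest other was divided by the whole range. In 3 transcripts this share was above Dixon's 95% critical value for 4 samples. For values that were not selected, chance alone picks out about 1 in 20 such groups. The male threshold had already excluded low values in these libraries, so that rate does not apply here. The critical value served as a cutoff alone, and the 3 transcripts are given as a description. PARRI_0001550.t1 was highest in male library 3, at 13.0 TPM from 38 reads against 5.85 to 6.31 TPM in the others, and the gap was 0.936 of the whole range. PARRI_0011390.t1 was highest in male library 3, at 29.1 TPM from 6 reads against 7.12 to 9.13 TPM from 1 or 2 reads, with a gap of 0.909. PARRI_0015343.t2 was highest in male library 4, at 13.1 TPM from 104 reads against 9.25 to 9.79 TPM, with a gap of 0.86.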

How the results depend on the processing

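The number of male-limited transcripts moved with the thresholds, to 82 with a female threshold of 0.5, 94 with a male threshold of 2 and 12 with a male threshold of 10. With each library left out in turn, which cannot lower the number, it ranged from 42 to 110. Neighbours higher in males numbered 30 within 1 locus number and 182 within 10, and those higher in females 5 and 80, as fewer or more transcripts were counted. Without each library in turn, neighbours higher in males ranged from 81 to 117 and those higher in females from 24 to 45. The shares of all tested transcripts moved as well. The 81, without female library 3, were 32.1% against 17.2% of all. The 24, without female library 2, were 9.64% against 17.5%. Without female library 1, the 117 were 45.7% against 30.8%, and the 45 were 17.6% against 27.4%. Neighbours higher in females numbered 21 of 173 tested (12.1%, against 15.1% in the main count) around transcripts with at least 100 male reads. This subset was chosen after seeing the data, as were the shares at single distances and the counts by locus. Quantile normalization, which moved the median log2 difference of all tested transcripts from 0.50 to 0.01, gave 85 neighbours higher in males (32.8%, against 18.8% of all) and 43 higher in females (16.6%, against 23.7%). With a pseudocount of 1, with no filter and with a mean of at least 5 TPM, the neighbour counts stayed within 1.5 times. PARRI_0015257.t2, which did not pass the threshold, changed direction under quantile normalization (log2 difference -0.27). The calls of 10 of the other 14 named tested transcripts held in every alternative fitted, and those of PARRI_0000936.t1, PARRI_0001549.t1, PARRI_0011395.t1 and PARRI_0021755.t1 did not. With replicate number as a block, neighbours higher in males numbered 98 and those higher in females 35, and 3 other transcripts of the loci were higher in males. The block is not a pairing, as a number was all that the libraries shared. Depth limits the female levels of the short transcripts most, since for 18 of the 36 a single read is worth more than the female threshold in each male library.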
